A study of Mus musculus with 12 samples.

Results

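Cell proliferation genes were followed in retinas of p16-3MR mice after a unilateral rise in intraocular pressure (IOP). The set holds 37 genes of S phase and mitosis, listed by name and with no threshold on their values, of the 24340 rows of the expression table. The list was chosen with earlier results of these data known, so its share of calls is not an independent test. All 37 were found, and all 37 belong to the 18509 rows above 0 in at least 1 of 12 libraries. Over 6 pairs of eyes, 17 of the 37 were called higher in IOP retinas and none lower, or 14 when the eyes of each mouse were paired, where 6.76% of all rows were called higher (4.83% when paired), with Mki67, Top2a, Ccnb2, Birc5 and Ube2c among the higher ones. All of these 17 but Bub1b and Mcm6 lay below 1 FPKM in every untreated eye, and those 15 lay between 0.0587 and 4.51 FPKM in the treated eyes. No difference between mice with and without ganciclovir (GCV) passed the test for any member.

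Each mouse carried the p16-3MR transgene, in which the p16Ink4a regulatory region drives a fusion protein with a viral thymidine kinase that turns GCV toxic, so the model acts on cells that use this promoter. Mice were 12 to 16 weeks old. In the IOP group (mice 3, 4 and 6) 1 eye was held at 85 to 90 mm Hg for 60 min and no GCV was given, and the CTRL group is the other eye of the same mice. In the IOP GCV group (mice 1, 2 and 5) 1 eye had the same pressure and the mice received GCV at 25 mg/kg on each of 3 days, and CTRL GCV is their other eye. All 12 retinas were collected on day 3, and RNA of each whole retina was sequenced as 1 library. The design asks how retinal RNA changes after the pressure rise and whether removal of p16-positive cells alters that change.

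A dividing cell first loads the MCM helicase onto its DNA, copies the DNA in S phase with the clamp PCNA and newly made deoxynucleotides, and then enters mitosis when cyclins A and B activate CDK1. Mitotic kinases, spindle motors and the anaphase promoting complex then part the chromosomes. In the adult mouse retina the neurons and Mueller glia have left the cell cycle, whereas microglia, endothelium and blood-borne leukocytes can divide. In bulk retina, more cells of a type and more RNA per cell cannot be told apart.

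Values are FPKM (fragments per kilobase of transcript, scaled to the library's total), a unit that allows levels to be compared between genes. Differences are on the log2(FPKM + 1) scale with their SE, which understates the change of genes near 0. Tests are from limma over all 18509 rows, and a gene is called at an adjusted p under 0.05. Each library rests on an estimated 3980000 fragments in the IOP retina of mouse 6 and 6790000 to 9060000 in the other 11. At this depth the lowest values rest on single fragments, so differences among them were not detectable. Summed rod markers lay at 34700 to 64600 FPKM in every library, so the tissue matches its label.

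Several libraries stand apart. Summed skeletal muscle markers reached 3560 FPKM in the IOP retina of mouse 3 and 400 in the IOP GCV retina of mouse 5, against 6 to 20.7 in the other 10 libraries. Summed lens markers lay at 3680 to 7540 FPKM in 6 libraries, which are the IOP retinas of mice 4, 6, 1, 2 and 5 and the CTRL GCV retina of mouse 1, and at 9.19 to 146 in the other 6. Summed ganglion cell markers were 1100 FPKM in the IOP retina of mouse 4, within the 991 to 2010 of the CTRL retinas, and 249 to 805 in the other IOP retinas. The counts of members called without each of these libraries are given beside the main counts.

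Between IOP and CTRL retinas without GCV, 8 of the 37 members were called higher and 0 lower, while 1.42% of all rows were called higher and 0.232% lower. The 8 were Rrm2, Ccnb2, Cdk1, Ube2c, Kif20a, Tpx2, Mki67 and Top2a. Under GCV, Rrm2, Ube2c, Mki67 and Top2a were called higher (4 of 37) and no member lower, against 1.65% and 0.157% of all rows. The comparison over the 6 eye pairs averages these 2 effects and shares all their samples. Despite its name it compares group means without pairing the eyes, except where the mouse is named as a block. It called 17 of 37 members higher and 0 lower, where 6.76% of all rows were higher and 5.44% lower. The median difference of the members was 0.43 without GCV, 0.30 with GCV and 0.37 over the 6 pairs, whereas the median over all rows was 0, 0.00405 and 0.00892.

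These counts change with the pairing and with single libraries. With the mouse as a block, 2 members (Mki67, adjusted p = 0.0432, and Top2a, 0.0371) were called without GCV, where 0.389% of all rows were called higher, and 0 with GCV, where the share was 0.751%. Over the 6 pairs the block left 14 members, against 4.83% of all rows; 13 of them were among the 17, Mcm3 was added, and Mcm6, Bub1, Aurkb and Kif23 were lost. Leaving out 1 library changed the 8 calls without GCV to 1 (CTRL of mouse 3), 1 (CTRL of mouse 4), 4 (CTRL of mouse 6), 2 (IOP of mouse 3), 15 (IOP of mouse 4, of which 14 were higher and Ccne1 was lower) and 5 (IOP of mouse 6). Without both eyes of mouse 3 or of mouse 4 the 8 became 0, and without both eyes of mouse 1 or 2 they became 2 and 3. Without both eyes of mouse 6, only Rrm2, Ube2c and Top2a of the 8 kept their calls. The 4 calls with GCV became 0 without any 1 of the CTRL GCV retinas and 3, 4 and 1 without the IOP GCV retinas of mice 1, 2 and 5. Ube2c lost its call in each of these fits, so the 4 without mouse 2 include another member. Over the 6 pairs the count was 9 and 8 without the CTRL retinas of mice 3 and 4, 11, 21 (20 higher and Ccne1 lower) and 18 without the IOP retinas of mice 3, 4 and 6, 15, 15 and 12 without the IOP GCV retinas of mice 1, 2 and 5, and 10 and 8 without the CTRL GCV retinas of mice 1 and 2, and it was 7 without both eyes of mouse 3. Across the 12 fits that each leave out 1 library, 8 members were called every time: Rrm2, Ccnb2, Cdk1, Birc5, Ube2c, Kif20a, Mki67 and Top2a. The other 9 were called in 10 (Bub1), 9 (Tpx2), 6 (Bub1b and Cdca8), 3 (Mcm6, Aurkb, Kif23 and Prc1) and 2 (Ccnb1) of the 12 fits.

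The direction was also read mouse by mouse. The IOP eye was the higher eye for 34, 35 and 33 members in mice 3, 4 and 6, and for 28, 34 and 33 members in mice 1, 2 and 5. In all 6 mice alike, 21 of the 37 members were higher in the IOP eye, compared with 10.7% of all rows. Ccne1 was lower in the IOP eye of all 6 mice, as were 10.1% of all rows. The 6 IOP values lay above all 6 CTRL values for 9 members, compared with 5.47% of all rows. Within the 3 mice without GCV this held for 23 members (11.7% of all rows), and within the 3 with GCV for 19 (14.5% of all rows).

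**Figure D1:**
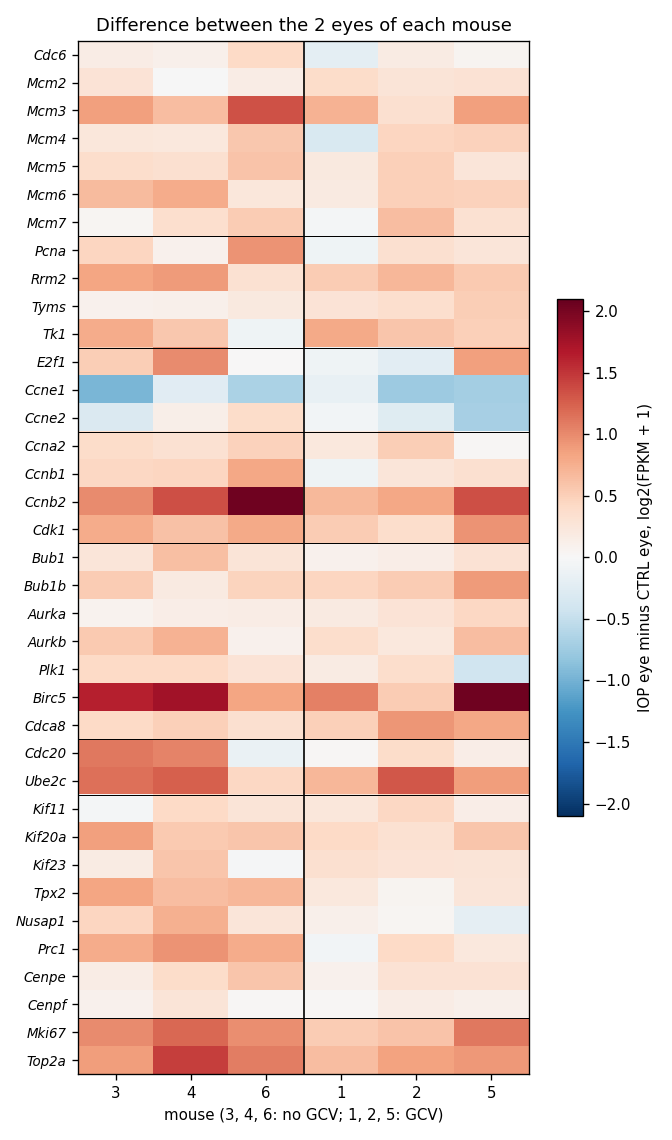
Difference between the IOP eye and the CTRL eye of each mouse for the 37 members, as colour on the log2(FPKM + 1) scale (red, IOP eye higher); columns are mice, rows are members grouped by role and separated by lines. Most cells are red in all 6 mice, with Ccnb2 in mouse 6 (2.05) and Birc5 in mouse 5 (2.05) the darkest, and Ccne1 is blue in all 6.

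In the following, values are given for mice 3, 4 and 6 (no GCV) and for mice 1, 2 and 5 (GCV), in this order. Mki67 encodes Ki-67, a coat of mitotic chromosomes and the standard stain for cycling cells. It was at 0.0259, 0 and 0.0925 FPKM in CTRL and 1.04, 1.29 and 1.14 FPKM in IOP retinas, and with GCV at 0.0536, 0.0131 and 0.132 in CTRL and 0.531, 0.528 and 1.43 in IOP retinas. In estimated fragments this is 0 to 8.9 in the 6 CTRL libraries and 35.7 to 124 in the 6 IOP libraries, so every IOP retina was far above every CTRL retina. The ratio of the mean FPKM over the 6 eyes was 18.8. The difference over the 6 pairs was 0.90 ± 0.11 (SE, adjusted p = 0.00127), made up of 1.05 ± 0.16 without GCV (adjusted p = 0.0135) and 0.75 ± 0.16 with GCV (adjusted p = 0.044). Leaving out 1 library, each of the latter calls held in 3 of 6 fits.

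Top2a, the topoisomerase that untangles replicated chromosomes, was at 0.102, 0.0217 and 0.249 FPKM in CTRL and 1.02, 1.79 and 1.63 in IOP retinas. With GCV it was at 0.105, 0.0257 and 0.115 in CTRL and 0.727, 0.834 and 1.10 in IOP retinas. No IOP value came near a CTRL value, and the ratio of the 6-eye means was 11.5. Its difference of 0.97 ± 0.09 over the 6 pairs had the smallest adjusted p of the members (0.000422), and it was the member that stayed called in each of the 6 fits without GCV that left out 1 library (1.13 ± 0.13, adjusted p = 0.00564). With GCV the difference was 0.80 ± 0.13 (adjusted p = 0.0157), called in 2 of 6 such fits.

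The promoters of Mki67, Top2a, Cdk1 and Ube2c are shown as examples of members that stayed called in all 12 fits, and that of Mcm6 as a replication gene among the 17. Each run is the 250 bases before the RefSeq start on the gene's strand, 5′ to 3′, in build GRCm38 (mm10, the build in the submitters' processing notes). The windows are chr7:135716380-135716629 (minus) for Mki67, chr11:99024190-99024439 (minus) for Top2a, chr10:69352913-69353162 (minus) for Cdk1, chr2:164769679-164769928 (plus) for Ube2c and chr1:128359706-128359955 (minus) for Mcm6. Capitals mark the CHR letters TTTGAA or TTCGAA, the CCAAT box, and E2F letters TTTCCCGC, TTTCGCGC, TTTGCCGC or TTTGGCGC, on either strand; these motifs are known from promoters of genes switched on in G2 and mitosis (the first and second) and in S phase (the third).
Mki67: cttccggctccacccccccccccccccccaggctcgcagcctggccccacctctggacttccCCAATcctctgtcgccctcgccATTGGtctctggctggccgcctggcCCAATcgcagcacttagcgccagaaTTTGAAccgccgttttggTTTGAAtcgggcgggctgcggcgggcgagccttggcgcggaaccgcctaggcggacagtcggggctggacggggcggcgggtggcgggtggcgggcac
Top2a: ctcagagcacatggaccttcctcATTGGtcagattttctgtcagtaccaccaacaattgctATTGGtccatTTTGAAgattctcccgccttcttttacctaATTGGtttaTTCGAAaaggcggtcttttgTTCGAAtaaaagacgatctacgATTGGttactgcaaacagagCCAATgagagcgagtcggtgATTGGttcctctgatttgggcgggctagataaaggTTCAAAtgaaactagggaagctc
Cdk1: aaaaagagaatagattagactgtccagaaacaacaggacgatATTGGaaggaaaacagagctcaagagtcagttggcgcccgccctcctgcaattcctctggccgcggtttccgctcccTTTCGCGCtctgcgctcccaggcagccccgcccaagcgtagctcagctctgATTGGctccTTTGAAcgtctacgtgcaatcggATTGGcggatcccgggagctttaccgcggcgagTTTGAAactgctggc
Ube2c: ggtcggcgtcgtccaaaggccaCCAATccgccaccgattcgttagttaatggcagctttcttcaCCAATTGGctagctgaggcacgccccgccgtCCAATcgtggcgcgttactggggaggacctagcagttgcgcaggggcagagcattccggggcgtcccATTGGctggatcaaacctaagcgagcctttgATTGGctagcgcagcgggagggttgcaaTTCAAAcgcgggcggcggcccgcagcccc
Mcm6: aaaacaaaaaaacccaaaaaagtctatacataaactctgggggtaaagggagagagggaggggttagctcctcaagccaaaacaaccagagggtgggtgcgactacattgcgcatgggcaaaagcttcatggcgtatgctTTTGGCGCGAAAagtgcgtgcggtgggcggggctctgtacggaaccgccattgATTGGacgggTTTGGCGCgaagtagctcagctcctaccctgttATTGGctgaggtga

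CHR letters stood at bases -116 and -98 of the Mki67 promoter and CCAAT boxes at -188, -166 and -141, whereas the Mcm6 promoter held E2F letters at -110, -106 and -47, of which the first pair overlap, CCAAT boxes at -57 and -14, and no CHR letters. In the Ube2c promoter the CCAAT boxes at -186 and -183 overlap on opposite strands. RefSeq promoters from 250 bases before to 50 after the start were matched for 31 of the 37 members, the first listed start of each gene. Of these 31, 17 held CHR letters (54.8%), compared with 17.3% of the promoters of 17191 genes of the table. A CCAAT box was in 24 of 31 (77.4%, against 38.7%), and all 17 with CHR letters had one (54.8%, against 7.2% of all promoters for both motifs together). E2F letters were in 6 of 31 (19.4%, against 2.83%). Among the 14 matched members that were called over the 6 pairs 10 held CHR letters, and among the 17 matched members that were not called 7 did, a difference that was not tested.

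Among the cyclins and CDK1, the engine of mitotic entry, 3 of 4 members were called higher over the 6 pairs, against 6.76% of all rows. With the block 3 were called, against 4.83% of all rows. Ccnb2, a cyclin B that partners CDK1, was at 0.375, 0.0798 and 0.333 FPKM in CTRL and 1.74, 1.74 and 4.51 in IOP retinas. With GCV its values were 0.289, 0.284 and 0.106 in CTRL and 1.07, 1.27 and 1.83 in IOP retinas. All IOP values exceeded all CTRL values, and the IOP retina of mouse 6 was the highest. The difference was 1.21 ± 0.18 over the 6 pairs (adjusted p = 0.00312), 1.46 ± 0.25 without GCV (adjusted p = 0.0239) and 0.95 ± 0.25 with GCV (adjusted p = 0.0909). Cdk1, the mitotic kinase itself, was at 0.0477, 0.0407 and 0.213 FPKM in CTRL and 0.795, 0.594 and 1.11 in IOP retinas, and with GCV at 0.0984, 0.145 and 0.108 in CTRL and 0.591, 0.485 and 1.14 in IOP retinas. It too showed no overlap, with a difference of 0.68 ± 0.10 over the 6 pairs (adjusted p = 0.00337), 0.73 ± 0.14 without GCV (adjusted p = 0.036) and 0.62 ± 0.14 with GCV (adjusted p = 0.0602). Of the 6 fits that leave out 1 library, the call without GCV held in 3 for Ccnb2 and 1 for Cdk1. Both calls were lost with the mouse as a block.

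Ccnb1, the other cyclin B, was lower in level, at 0, 0 and 0.16 FPKM in CTRL and 0.351, 0.372 and 1.04 in IOP retinas, and with GCV at 0.185, 0.0604 and 0 in CTRL and 0.114, 0.27 and 0.265 in IOP retinas. The groups overlapped only with GCV, where the IOP eye of mouse 1 was below its CTRL eye. Its difference of 0.37 ± 0.10 over the 6 pairs (adjusted p = 0.0467) was called in 2 of the 12 fits that leave out 1 library. Ccna2, which encodes cyclin A2, was the most abundant of this group and was already present in CTRL retinas, at 6.84, 8.19 and 7.19 FPKM, against 9.25, 10.5 and 10.5 in IOP retinas. With GCV it was at 5.89, 6.07 and 7.83 in CTRL and 7.07, 9.12 and 7.99 in IOP retinas. The IOP eye was higher in 6 of 6 mice although 2 of the 3 IOP GCV values fell within the CTRL range, and the difference of 0.33 ± 0.10 did not pass (adjusted p = 0.0562). Exons of Ccna2 overlap those of Exosc9 on the other strand, which lay at 18.7 to 25.2 FPKM in the 6 CTRL retinas and 26.7 to 62.8 in the 6 IOP retinas, the same direction as Ccna2, and the part of its reads in the Ccna2 values was not tested.

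**Figure D2:**
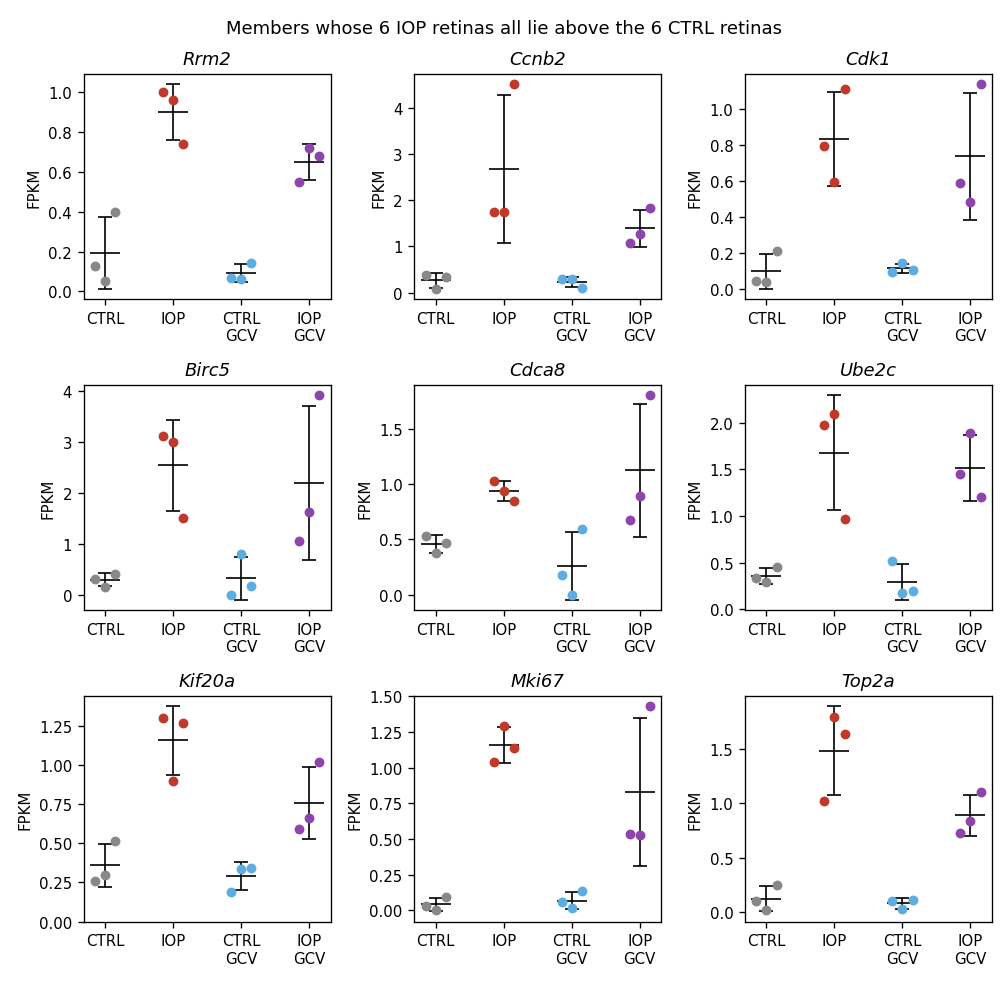
FPKM in each library for the 9 members whose 6 IOP retinas all lie above the 6 CTRL retinas; each point is 1 retina, and the line and bar are the mean and SD of 3 retinas. Mki67 and Top2a lie at or below 0.249 FPKM in all CTRL retinas and at or above 0.528 in all IOP retinas, and IOP retinas with and without GCV overlap in range for most of the 9.

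Among the mitotic kinases, the spindle checkpoint and the chromosomal passenger complex, 5 of 7 members were called higher over the 6 pairs, against 6.76% of all rows. With the block 3 of the 7 were called, against 4.83% of all rows. Birc5 encodes survivin, a subunit of the passenger complex that corrects chromosome attachment. It was at 0.32, 0.169 and 0.425 FPKM in CTRL and 3.12, 2.99 and 1.52 in IOP retinas, and with GCV at 0, 0.805 and 0.181 in CTRL and 1.07, 1.62 and 3.91 in IOP retinas. Its difference of 1.31 ± 0.23 was the largest of the 37 over the 6 pairs on the log2(FPKM + 1) scale (adjusted p = 0.00841), and it was 1.41 ± 0.33 without GCV and 1.21 ± 0.33 with GCV, neither of which passed (adjusted p = 0.0693 and 0.0981). By the ratio of the 6-eye means Birc5 (7.49) was below Mki67 (18.8) and Top2a (11.5). The IOP values did not overlap the CTRL values but were spread, with the highest in mouse 5 and the lowest in mouse 1.

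Aurkb, the kinase of the same complex, was at 0.0719, 0.0613 and 0.064 FPKM in CTRL and 0.562, 0.765 and 0.139 in IOP retinas, and with GCV at 0.148, 0 and 0 in CTRL and 0.48, 0.162 and 0.573 in IOP retinas. The IOP eye of mouse 6 was below the CTRL GCV eye of mouse 1, so the 6 and 6 values overlapped. The difference was 0.44 ± 0.11 (adjusted p = 0.034), and 0.0511 with the mouse as a block. Cdca8, which encodes the passenger subunit borealin, was at 0.529, 0.376 and 0.471 FPKM in CTRL and 1.03, 0.939 and 0.85 in IOP retinas. With GCV it was at 0.181, 0 and 0.598 in CTRL and 0.673, 0.895 and 1.8 in IOP retinas. Those values did not overlap, and the difference was 0.58 ± 0.14 (adjusted p = 0.0312). Its exons overlap 9930104L06Rik on the other strand, at 5.33 to 7.3 FPKM in CTRL and 5.12 to 6.42 in IOP retinas.

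Bub1, a checkpoint kinase at the kinetochore, was at 0.0925, 0 and 0.0824 FPKM in CTRL and 0.302, 0.548 and 0.3 in IOP retinas, and with GCV at 0, 0 and 0.0349 in CTRL and 0.0587, 0.105 and 0.273 in IOP retinas. It was higher in the IOP eye of all 6 mice, with the IOP GCV retina of mouse 1 inside the CTRL range, by 0.28 ± 0.06 (adjusted p = 0.0205), and the block gave an adjusted p of 0.0541. Bub1b, which encodes the checkpoint protein BUBR1, was the most abundant member of this group in every library. Its values were 12.8, 13.3 and 15.6 FPKM in CTRL and 18.9, 15.3 and 22 in IOP retinas, and with GCV 11.1, 10.9 and 11.8 in CTRL and 15.6, 16.2 and 22.7 in IOP retinas. The IOP eye was higher in 6 of 6 mice, and the CTRL retina of mouse 6 lay above the IOP retina of mouse 4. The difference was 0.51 ± 0.11 over the 6 pairs (adjusted p = 0.0225). The other 2 kinases were not called: Aurka was higher by 0.21 ± 0.11 (adjusted p = 0.248) and Plk1 by 0.21 ± 0.15 (adjusted p = 0.387).

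Of the anaphase promoting complex, Ube2c, the E2 enzyme that supplies it with ubiquitin, was called in all 3 comparisons. It was at 0.338, 0.287 and 0.45 FPKM in CTRL and 1.97, 2.09 and 0.966 in IOP retinas, and with GCV at 0.517, 0.17 and 0.19 in CTRL and 1.45, 1.89 and 1.2 in IOP retinas. No IOP value fell within the CTRL range, though these are 1.0 to 3.1 estimated fragments in CTRL and 3.1 to 14.4 in IOP retinas. The difference was 0.95 ± 0.19 without GCV (adjusted p = 0.0358), 0.96 ± 0.19 with GCV (adjusted p = 0.0308) and 0.96 ± 0.13 over the 6 pairs (adjusted p = 0.00222). The call held in 2 of the 6 fits without GCV and 0 of the 6 with GCV that leave out 1 library, and in neither set of mice with the block. Its exons overlap Tnnc2 on the other strand, a fast muscle troponin, which was at 606 FPKM in the IOP retina of mouse 3 and 65.7 in the IOP GCV retina of mouse 5. In the IOP retina of mouse 4 Tnnc2 was at 0.217 FPKM and Ube2c at 2.09, and the part of Tnnc2 reads in the Ube2c values was not tested. Cdc20, the activator of the complex, was higher by 0.43 ± 0.14 over the 6 pairs without a call (adjusted p = 0.0744). Its exons overlap Elovl1 on the other strand, which lay at 4.18 to 4.98 FPKM in CTRL retinas. Elovl1 was at 2.87 FPKM in the IOP retina of mouse 6 and 6.94 to 11.9 in the other IOP retinas, and its part in the Cdc20 values was not tested.

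Among the 8 spindle motors, spindle and midzone proteins, 4 were called higher over the 6 pairs, against 6.76% of all rows. With the block 3 were called, against 4.83% of all rows. All 8 lay under 1 FPKM in every CTRL retina. Kif20a, a kinesin of cytokinesis, was at 0.262, 0.299 and 0.514 FPKM in CTRL and 1.30, 0.9 and 1.27 in IOP retinas, and with GCV at 0.19, 0.337 and 0.345 in CTRL and 0.593, 0.661 and 1.02 in IOP retinas. IOP and CTRL values did not overlap. The difference was 0.55 ± 0.09 over the 6 pairs (adjusted p = 0.00475), 0.67 ± 0.12 without GCV (adjusted p = 0.0294) and 0.44 ± 0.12 with GCV (adjusted p = 0.108). Kif20a kept its call without GCV in 1 of the 6 fits that leave out 1 library and lost it with the mouse as a block. Its exons overlap Cdc23 on the other strand, which was at 12.9 to 16.3 FPKM in the 6 IOP retinas and 15.4 to 17.4 FPKM in the 6 CTRL retinas.

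Tpx2, which anchors Aurora A to the spindle, was called without GCV and not with GCV, and its interaction is given with the tests of GCV. It was at 0.482, 0.439 and 0.802 FPKM in CTRL and 1.64, 1.25 and 1.94 in IOP retinas, and with GCV at 0.564, 0.434 and 0.547 in CTRL and 0.827, 0.486 and 0.854 in IOP retinas. The 3 IOP values without GCV stood above all others, while with GCV the IOP and CTRL values overlapped. The difference was 0.73 ± 0.14 without GCV (adjusted p = 0.0321), 0.18 ± 0.14 with GCV (adjusted p = 0.54) and 0.45 ± 0.10 over the 6 pairs (adjusted p = 0.0194). The call without GCV held in 2 of the 6 fits that leave out 1 library and was lost with the mouse as a block. Prc1 bundles midzone microtubules and its IOP and CTRL values overlapped with GCV but not without. Its values were 0.555, 0.316 and 0.683 FPKM in CTRL and 1.67, 1.52 and 1.88 in IOP retinas, and with GCV 0.524, 0.467 and 0.994 in CTRL and 0.473, 0.965 and 1.31 in IOP retinas. The difference was 0.83 ± 0.18 without GCV (adjusted p = 0.0549), 0.20 ± 0.18 with GCV (adjusted p = 0.625) and 0.51 ± 0.13 over the 6 pairs (adjusted p = 0.0335). This last call held in 3 of the 12 fits that leave out 1 library and was lost with a pseudocount of 0.1. Its exons overlap Rccd1 on the other strand, at 2.01 to 3.97 FPKM in CTRL and 2.9 to 3.78 in IOP retinas.

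Kif23, a kinesin of the central spindle, was at 0.237, 0.0673 and 0.246 FPKM in CTRL and 0.387, 0.596 and 0.23 in IOP retinas, and with GCV at 0.122, 0.0398 and 0.0893 in CTRL and 0.413, 0.267 and 0.314 in IOP retinas. The IOP eye of mouse 6 was slightly below its CTRL eye, and the difference of 0.27 ± 0.07 (adjusted p = 0.0366) became 0.0867 in adjusted p with the mouse as a block. The remaining members of this group, the motor Kif11, the spindle protein Nusap1 and the kinetochore proteins Cenpe and Cenpf, had differences from 0.12 to 0.30 over the 6 pairs and adjusted p from 0.084 to 0.147.

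**Figure D3:**
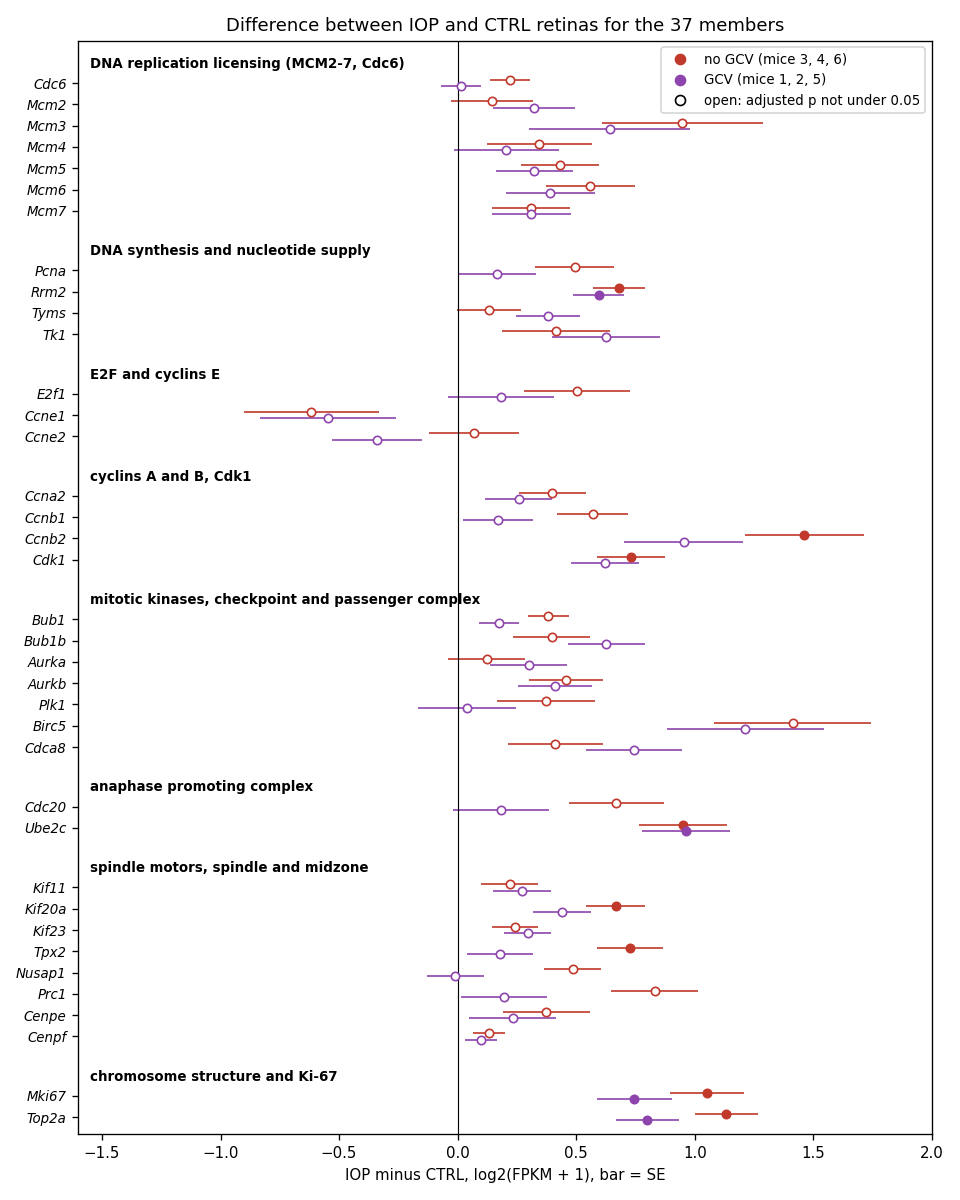
IOP minus CTRL on the log2(FPKM + 1) scale with its SE for the 37 members by role, without GCV (red, mice 3, 4 and 6) and with GCV (purple, mice 1, 2 and 5); filled points have an adjusted p under 0.05. All members but Ccne1 lie right of 0 without GCV, 34 of 37 do with GCV, and the SE bars of the 2 sets of mice overlap for most members.

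The replication genes had a median difference of 0.31 over the 7 licensing genes and 0.43 over the 4 genes of DNA synthesis. Of the 7 licensing genes, which load the MCM helicase at origins, Mcm6 was called over the 6 pairs. It was at 1.79, 1.77 and 2.09 FPKM in CTRL and 3.41, 3.76 and 2.64 in IOP retinas, and with GCV at 1.84, 1.66 and 2.45 in CTRL and 2.24, 2.76 and 3.83 in IOP retinas. The IOP eye was higher in 6 of 6 mice, by 0.48 ± 0.13 (adjusted p = 0.0455), with 1 overlap between the IOP GCV retina of mouse 1 and the CTRL GCV retina of mouse 5. This call held in 3 of the 12 fits that leave out 1 library. Mcm3, another helicase subunit, was at 1.28, 0.767 and 1.47 FPKM in CTRL and 3.15, 1.76 and 5.23 in IOP retinas, and with GCV at 0.828, 0.764 and 1.61 in CTRL and 2.03, 1.23 and 3.73 in IOP retinas. It was higher in the IOP eye of all 6 mice, by 0.79 ± 0.24 (adjusted p = 0.0559), and passed with the mouse as a block (0.0319).

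Mcm2 was the most abundant licensing gene, at 5.62, 4.62 and 4.61 FPKM in CTRL and 7.12, 4.6 and 5.22 in IOP retinas, and with GCV at 3.93, 4.09 and 5.09 in CTRL and 5.46, 5.17 and 6.5 in IOP retinas. The groups overlapped without GCV, and the difference of 0.23 ± 0.12 was not called (adjusted p = 0.234). The differences of Mcm4, Mcm5, Mcm7 and the loader Cdc6 were 0.12 to 0.38 over the 6 pairs, with adjusted p from 0.0576 to 0.273.

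Rrm2, a subunit of the reductase that makes deoxynucleotides, was called in all 3 comparisons. It was at 0.128, 0.0545 and 0.398 FPKM in CTRL and 1.00, 0.964 and 0.742 in IOP retinas, and with GCV at 0.0658, 0.0645 and 0.145 in CTRL and 0.548, 0.721 and 0.679 in IOP retinas. Every IOP value was above every CTRL value. The difference was 0.68 ± 0.11 without GCV (adjusted p = 0.0168), 0.59 ± 0.11 with GCV (adjusted p = 0.0226) and 0.64 ± 0.08 over the 6 pairs (adjusted p = 0.00106). Leaving out 1 library, the call held in 3 of 6 fits without GCV and 2 of 6 with GCV, and with the block in neither set of mice. Tk1, the cellular thymidine kinase of S phase, was at 0.33, 0 and 0.294 FPKM in CTRL and 1.29, 0.475 and 0.212 in IOP retinas, and with GCV at 0, 0 and 0.373 in CTRL and 0.735, 0.496 and 0.95 in IOP retinas. The IOP eye was higher in 5 of 6 mice, mouse 6 being the exception, and the difference of 0.52 ± 0.16 did not pass (adjusted p = 0.059).

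Pcna, the sliding clamp of DNA polymerases, was the most abundant member of all, at 35.7, 35.4 and 30.8 FPKM in CTRL and 49.1, 37.9 and 60 in IOP retinas, and with GCV at 39.5, 31 and 28.4 in CTRL and 37, 39.2 and 34.2 in IOP retinas. The ranges overlapped, and the difference of 0.33 ± 0.12 was not called (adjusted p = 0.0888). Tyms, the thymidylate synthase, was higher by 0.26 ± 0.10 in 6 of 6 mice without a call (adjusted p = 0.1).

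None of the 3 genes of the G1 to S transition was called. Ccne1, a cyclin E that activates CDK2, was at 2.3, 3.25 and 2.56 FPKM in CTRL and 0.703, 2.62 and 1.25 in IOP retinas, and with GCV at 2.88, 3.99 and 2.52 in CTRL and 2.47, 1.95 and 1.15 in IOP retinas. It was the lower eye under IOP in 6 of 6 mice, but the ranges overlapped through the IOP retinas of mice 4 and 1, and the difference of -0.58 ± 0.20 did not pass (adjusted p = 0.0827). Without the IOP retina of mouse 4 it was -0.73 and was called. Ccne2, the other cyclin E, was at 5.05, 4.83 and 3.63 FPKM in CTRL and 3.92, 5.33 and 5.07 in IOP retinas, and with GCV at 3.56, 4.39 and 5.96 in CTRL and 3.36, 3.51 and 3.28 in IOP retinas. Its eyes differed in either direction, with a mean of -0.14 ± 0.13 (adjusted p = 0.538). E2f1, the transcription factor that switches on S phase genes, was higher in the IOP eye of 4 of 6 mice by 0.34 ± 0.16 (adjusted p = 0.177).

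Whether GCV altered the response was tested as an interaction, the effect of IOP with GCV minus that without. No member was called, as were 0% of all rows. At an unadjusted p under 0.05, 3 members were lower, Tpx2 (-0.55, 95% interval -0.98 to -0.11), Nusap1 (-0.49, -0.87 to -0.12) and Prc1 (-0.64, -1.21 to -0.06), where 0.708% of all rows were; their adjusted p was 0.997. For Mki67 the difference between the 2 effects was -0.31 (95% interval -0.80 to 0.19), for Top2a -0.33 (-0.75 to 0.08), for Ccnb2 -0.51 (-1.30 to 0.28) and for Ube2c 0.01 (-0.574 to 0.595). These intervals leave room for an effect with GCV that is clearly smaller as well as for one of the same size.

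In IOP GCV against IOP retinas, a comparison that shares its samples with the interaction, 0 of 37 members and 0% of all rows were called. At an unadjusted p under 0.05, 7 members were lower with GCV and 0 higher (Pcna, Ccnb1, Bub1, Kif20a, Tpx2, Prc1 and Top2a), while 1.59% of all rows were lower, and all 7 had an adjusted p of 0.819. Tpx2 differed by -0.60 (95% interval -0.91 to -0.29), and Top2a by -0.39 (-0.68 to -0.09). The median over the 37 was -0.21, against 0.00609 over all rows. In CTRL retinas, 0 of 37 members and 0% of all rows differed between mice with and without GCV, and none of the 37 had an unadjusted p under 0.05.

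Further genes of the same pathway were read from lists. Of 39 other S phase genes, 6 were called higher over the 6 pairs and 0 lower, against 6.76% and 5.44% of all rows, with a median of 0.21. They were the GINS subunits Gins1 and Gins2 of the replication helicase, the kinase activator Dbf4, the polymerase subunit Pola2, and Uhrf1 and Hells, which maintain DNA methylation. Gins2 had the largest difference of them, 1.35 ± 0.27 (adjusted p = 0.0136), from 0.888, 1.76 and 1.71 FPKM in CTRL to 8.35, 3.54 and 5.10 in IOP retinas without GCV, and from 1.82, 1.49 and 0.501 to 3.67, 2.83 and 7.75 with GCV. With the mouse as a block, Gins2 (adjusted p = 0.0573) and Dbf4 (0.0734) were not called. The most abundant was the fork protein Tipin, at 18.2 to 29.7 FPKM in 11 libraries and 64.4 in the IOP retina of mouse 6.

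Of 50 other G2 and mitosis genes, 7 were called higher over the 6 pairs (Hmmr, Kif14, Melk, Ncaph, Cdca2, Pbk and Trip13) and 2 lower, with a median of 0.18. The shares of all rows were 6.76% higher and 5.44% lower, so the 2 lower genes are no more than that share. Hmmr, a spindle protein, went from 0, 0.0293 and 0.153 FPKM in CTRL to 0.37, 0.518 and 0.6 in IOP retinas, and with GCV from 0, 0.0346 and 0.0777 to 0.131, 0.271 and 0.334 (0.38 ± 0.06, adjusted p = 0.00483). The 2 lower genes were the chromokinesin Kif4 and the cytokinesis factor Ect2. Ect2 fell from 1.72, 1.81 and 2.04 FPKM to 0.858, 0.807 and 0.719, and with GCV from 2.15, 1.72 and 1.58 to 0.833, 1.14 and 1.10 (-0.57 ± 0.09, adjusted p = 0.00405), so its CTRL and IOP values did not overlap. Kif4 fell by 0.67 on the log2 scale (adjusted p = 0.00865). With the block Trip13 was not called (adjusted p = 0.0822). Pttg1, which encodes securin, was the most abundant at 52.9 to 82.3 FPKM.

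Among the regulators of the cycle, 1 of 9 inhibitors and pocket proteins, 1 of 8 G1 cyclins and kinases and 1 of 9 other E2F factors were called over the 6 pairs, all higher. With 6.76% of all rows called higher, such counts are near the background and are given for the named genes only. Cdkn1a encodes the CDK inhibitor p21, which holds cells out of S phase. It was at 1.25, 1.45 and 1.91 FPKM in CTRL and 6.64, 5.70 and 10.6 in IOP retinas, and with GCV at 1.59, 2.09 and 1.75 in CTRL and 7.39, 3.83 and 17.3 in IOP retinas. Its difference of 1.71 ± 0.29 had an adjusted p of 0.00604, and of 0.0232 with the mouse as a block. Cdk2, the partner of cyclin E, was higher by 0.78 ± 0.16 (adjusted p = 0.0156). E2f6, a repressor of the E2F family, was higher by 1.07 ± 0.13 over the 6 pairs (adjusted p = 0.000964), by 1.26 ± 0.18 without GCV (adjusted p = 0.0115, and 0.0559 with the block) and by 0.87 ± 0.18 with GCV (adjusted p = 0.0378, and 0.102 with the block). In these lists Cdkn1b (52.1 to 67 FPKM in 11 libraries, 189 in the IOP retina of mouse 6), Cdk4 (23.1 to 52.2 FPKM) and E2f4 (23.8 to 50.5 FPKM) were the most abundant.

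Microglia and leukocyte markers also differed between IOP and CTRL retinas. Summed over the 37 members, the level was 89.5 to 91.1 FPKM in CTRL and 124 to 158 in IOP retinas (158 in mouse 6), and with GCV 79.2 to 89.2 in CTRL and 103 to 124 in IOP retinas, with Pcna and Bub1b as the most abundant members. Of 14 microglia markers, 10 were called higher and 1 lower over the 6 pairs (9 and 1 with the block), where 6.76% of all rows were higher and 5.44% lower. Their sum was 80.9 to 127 FPKM in CTRL, 319 to 534 in IOP, 101 to 108 in CTRL GCV and 302 to 702 in IOP GCV retinas. Of 13 markers of infiltrating leukocytes, 10 were called higher (9 with the block), and their sum was 10.9 to 57.9 FPKM in CTRL, 387 to 812 in IOP, 15.1 to 44.2 in CTRL GCV and 227 to 2730 in IOP GCV retinas. Of 6 markers of astrocytes and reactive glia 4 were called higher and 1 lower (3 and 0 with the block), with sums of 37.7 to 155 FPKM in the 6 CTRL retinas and 420 to 1230 in the 6 IOP retinas. The part of these cells in the members' levels was not tested. Of 10 endothelium and pericyte markers 0 were called, and of 12 ganglion cell markers 10 were called lower, and 3 with the mouse as a block.

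Lens and muscle markers were also measured in each library, and their part in the members' levels was not tested. Of 19 lens markers, 10 were called higher over the 6 pairs, against 6.76% of all rows, and 12 with the mouse as a block, against 4.83%. In the CTRL GCV retina of mouse 1, where the lens sum was 7540 FPKM, Mki67 was at 0.0536 and Top2a at 0.105 FPKM, within the range of the other CTRL retinas. In the IOP retina of mouse 3, where the lens sum was 123 FPKM, Mki67 was at 1.04 and Top2a at 1.02 FPKM. Of 10 skeletal muscle markers 0 were called. The muscle sum was highest in the IOP retina of mouse 3 (3560 FPKM) and the IOP GCV retina of mouse 5 (400 FPKM). Birc5, Cdca8, Tk1 and Mcm2 also had their highest values in these retinas. The highest Top2a of all 12 was instead in the IOP retina of mouse 4, with a muscle sum of 8.11 FPKM.

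**Figure D4:**
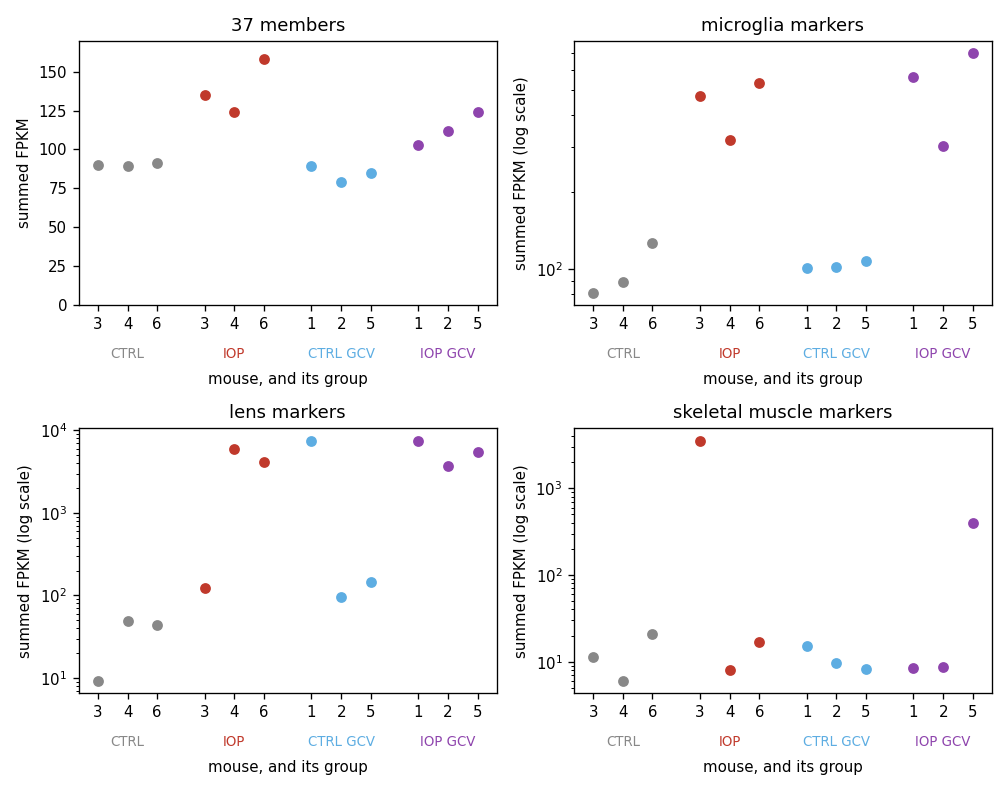
Summed FPKM per library, by mouse and group, of the 37 members (linear axis) and of the microglia, lens and skeletal muscle markers (log axes). The members and the microglia markers are higher in all 6 IOP retinas than in all 6 CTRL retinas, whereas the lens sum is also high in the CTRL GCV retina of mouse 1 (7540) and the muscle sum is high in the IOP retinas of mice 3 (3560) and 5 (400).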

How the data were processed

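RNA of 12 retinas (4 groups of 3) was sequenced as stranded mRNA libraries. The study's methods name HOMER counts on RefSeq exons, and the submitters' processing notes name TopHat2, Bowtie2, Cufflinks, Cuffdiff and mm10. The authors deposited 1 value per gene symbol and library with no unit stated. From the values, what the authors deposited was read as FPKM (fragments counted over exons, divided by transcript length and library total), since 80.7% to 86.6% of low values of 3629 single-transcript genes lay within 0.2 of whole fragments at the estimated depth, and no counts are in the table. Of the rows, 27 carry date-like names. Strand use in counting is not given in the sources used here, so reads of overlapping genes on opposite strands cannot be told apart; this touches 10 of the 37 members and 4 of the 17 called.

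log2(FPKM + 1) was fitted with limma 3.58.1 in R 4.3.3 (4 group means over all 12 libraries, variance trend, Benjamini-Hochberg over 18509 rows above 0), and called at an adjusted p under 0.05. Tables and figures used Python 3.11.15, pandas 2.3.3 and matplotlib 3.10.9. Calling was tested on simulated data. Same-numbered retinas are the eyes of 1 mouse, so the block pairs them by design; deviations from the group means over 12910 genes correlated with r = 0.207, 0.388, 0.1, -0.117, 0.132 and 0.166 in mice 3, 4, 6, 1, 2 and 5. Values per library are given for members called in a comparison, the 12 with the largest difference over the 6 pairs and a group mean of at least 0.5 FPKM, and the most abundant of each role. Called pathway and regulator genes are named, at most 5 a list with values. Members and lists were chosen with earlier results of these data known; the muscle list was added after Tnnc2 had been seen. Promoters are RefSeq, GRCm38.p6.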

Additional observations from a re-analysis of the deposited data

How the results depend on the processing

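Without GCV, the 8 members called became 4 with a filter of 1 FPKM in 3 libraries, 2 with the mouse as a replicate block (pairing the eyes), 1 with only the groups compared and 24 at an unadjusted p under 0.05, and 0 to 15 when 1 library or both eyes of 1 mouse were left out. With GCV, the 4 became 2 with the filter, 0 with the block, 0 with only the groups compared, 15 unadjusted and 0 to 4 on leaving out. Over the 6 pairs, the 17 became 13 with the filter, under which 25 members were tested, 14 with the block, 30 unadjusted (29 higher) and 7 to 21 on leaving out. Of all 18509 rows, those higher at an unadjusted p under 0.05 were 1757 without GCV, 1854 with GCV and 2636 over the 6 pairs. For the interaction 0 became 3 unadjusted, and for GCV in IOP retinas 0 became 7. A pseudocount of 0.1, median-ratio scaling and a fit without the trend kept each count within 1.5 times. Single calls were lost under them: with the pseudocount Kif20a and Tpx2 without GCV and Prc1 over the 6 pairs, and without the trend Mki67 with GCV and Ccnb1 over the 6 pairs. Leaving out both eyes of a mouse was chosen after seeing the data.

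Among 111 member differences, none of those called changed sign. Of the uncalled ones, 6 changed sign when libraries were left out: Cdc6 with GCV (0.0145, range -0.0682 to 0.12), Mcm2 without GCV (0.146, -0.00792 to 0.26), E2f1 with GCV (0.181, -0.162 to 0.385), Ccne2 without GCV (0.0699, -0.0901 to 0.255), Plk1 with GCV (0.0403, -0.125 to 0.269) and Nusap1 with GCV (-0.00948, -0.0725 to 0.0788). The cause of these changes was not tested. Depth limits the members near 0, since the IOP retina of mouse 6 has 3980000 estimated fragments.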
